A study of Mus musculus with 2 samples.

Results

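The cells described here are the 115 Jumonji-library cells with the largest share of RNA molecules from S100a8, S100a9, Chil3 and Lcn2. They were taken from 575 cells of that library that passed filters on detected genes and mitochondrial share, and the other 460 serve as the comparison. A score was computed for each cell as the unique molecular identifiers (UMIs, tags that mark single RNA molecules) of the 4 genes divided by all UMIs of the cell, as counts per 1000000 UMIs (CPM). The highest 20% by score were taken. The whole series held 1183 such filtered cells, of which 608 came from the Renilla library.

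The material was mouse primary leukaemia driven by the MLL-AF9 fusion and expressing Cas9, a nuclease guided to DNA by a single guide RNA (sgRNA). The Jumonji library came from leukaemia cells carrying an sgRNA against the Jumonji domain of Jmjd1c, a histone demethylase gene. The Renilla library came from cells carrying an sgRNA against Renilla luciferase, a control sequence that mice lack. Both cultures grew in RPMI with 10% fetal bovine serum and 10 ng/ml mouse interleukin-3. Each condition had 1 library, so cells are not replicates of a condition, no test was made, and all intervals below are 95% intervals that cover counting error only.

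Neutrophils arise from granulocyte progenitors through a series of granule-forming stages. Promyelocytes make primary granules, which hold myeloperoxidase and serine proteases such as neutrophil elastase. Myelocytes and metamyelocytes then make secondary granules, with lipocalin 2, neutrophilic granule protein and lactoferrin, and later gelatinase granules. S100A8 and S100A9 form calprotectin, a calcium- and zinc-binding dimer that fills the cytosol of maturing neutrophils, and Chil3 encodes a chitinase-like protein of the same lineage. C/EBP transcription factors, C/EBPε among them, are known to act on granule genes.

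Promoter sequence is shown first as background, since C/EBP factors are known to act on granule genes such as Lcn2 and Ngp. Any part of these factors in the values below was not tested. Not all of the genes looked up are known C/EBP targets. The sequences are from RefSeq on GRCm38.p6, and 14 of the 19 genes looked up (the 4 score genes and the 15 higher genes named below) had an entry. BC100530, Wfdc21, Mogat2, Ppp1r42 and Mmp9 had none. The word searched was TTNNGNAA on both strands, in the 250 bases before the RefSeq start, with a place that matched on both strands counted once. Of the 14 promoters, 12 held it, against 36.8% of all 32851 promoters of this length. A second word, GAGGAA on both strands, of the kind bound by PU.1, was in 4 of the 14 and in 23.3% of all promoters. The genes were picked from these same data, and some, such as Gm5483 and Stfa1, are near-identical neighbours. The shares are therefore a description, and no test was made of them. A match is a run of letters and was not tested as a binding site. The 250 bases before S100a9 and before Chil3 are printed whole, on the gene's strand and from 5′ to 3′, with the TTNNGNAA matches in capitals.
S100a9, chr3:90695722-90695971, minus strand: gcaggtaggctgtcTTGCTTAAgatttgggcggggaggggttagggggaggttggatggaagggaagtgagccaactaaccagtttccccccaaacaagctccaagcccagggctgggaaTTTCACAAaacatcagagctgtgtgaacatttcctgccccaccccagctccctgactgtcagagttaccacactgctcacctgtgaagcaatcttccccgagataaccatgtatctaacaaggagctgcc
Chil3, chr3:106167565-106167814, minus strand: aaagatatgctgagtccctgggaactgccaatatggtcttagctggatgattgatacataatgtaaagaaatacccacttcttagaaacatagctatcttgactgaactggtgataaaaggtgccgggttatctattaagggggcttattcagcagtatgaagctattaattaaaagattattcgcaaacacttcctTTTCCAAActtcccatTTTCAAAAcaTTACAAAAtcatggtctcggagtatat

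The matches before S100a8, Lcn2, Ngp and Stfa1 are given with up to 10 bases on either side, because these genes carry the score or stand highest outside it. The S100a8 match began 117 bases before the RefSeq start, the Lcn2 match 216, the first Ngp match 138 and the Stfa1 match 109. RefSeq starts differ from the GENCODE gene starts for some genes: the Lcn2 match lies inside the GENCODE span of its gene (chr2:32384633-32388252), and so does the Stfa1 match (chr16:36276951-36285373). Cybb and Ccl6 were the 2 of the 14 with no match in this window. The whole windows of Cybb, Serpina1b and Ifitm6 also lay inside the GENCODE spans of these genes.
S100a8, chr3:90668944-90668971, plus strand: atggacttggTTAGGAAAcagaggctgt
Lcn2, chr2:32387938-32387965, minus strand: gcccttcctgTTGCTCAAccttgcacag
Ngp, chr9:110419660-110419687, plus strand: tcctggtttaTTGCCCAAacctccttgc
Stfa1, chr16:36277029-36277056, plus strand: gcagtaagacTTGCCTAAggccacactc

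The chosen cells had a median of 18774 UMIs (6652 to 46868) and 3846 detected genes per cell, against 22989.5 UMIs and 4240 genes in the other Jumonji cells and 23528 UMIs in the Renilla cells. Their median mitochondrial share was 2.40%, against 2.70% and 3.43%. The libraries shared no barcode. A doublet caller marked 1 chosen cell and 4 other Jumonji cells. Jmjd1c (mm10 chr10:67096125-67256326), the targeted gene, was at 87.3 CPM in the chosen cells, 117 in the other Jumonji cells and 140 in the Renilla cells. The log2 ratio of chosen over other Jumonji cells was -0.43 (-0.65 to -0.21). Counts from the 3′ end do not show whether the Jumonji domain was disrupted in a given cell.

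The score used the 4 genes, so their values are a description of the rule. In the chosen cells the score ran from 189 to 35346 CPM, with quartiles of 639, 2425 and 8741. The other Jumonji cells ran from 0 to 189, and 279 of them were at 0. The last cells taken were at 204, 204 and 189, from 4, 5 and 2 score-gene UMIs, and the first cells left out were at 189, 184 and 172. The limit therefore cut through a continuous range, with 11 chosen cells within 1.5-fold above it and 19 other cells within 1.5-fold below it. Of the chosen cells, 93 carried at least 10 score-gene UMIs and 22 carried fewer. The other Jumonji cells carried 5 at most. The chosen cells held 97.4% of the score-gene UMIs of the filtered library, and the 29 chosen cells with the most UMIs held 71.6% of theirs.

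**Figure D1:**
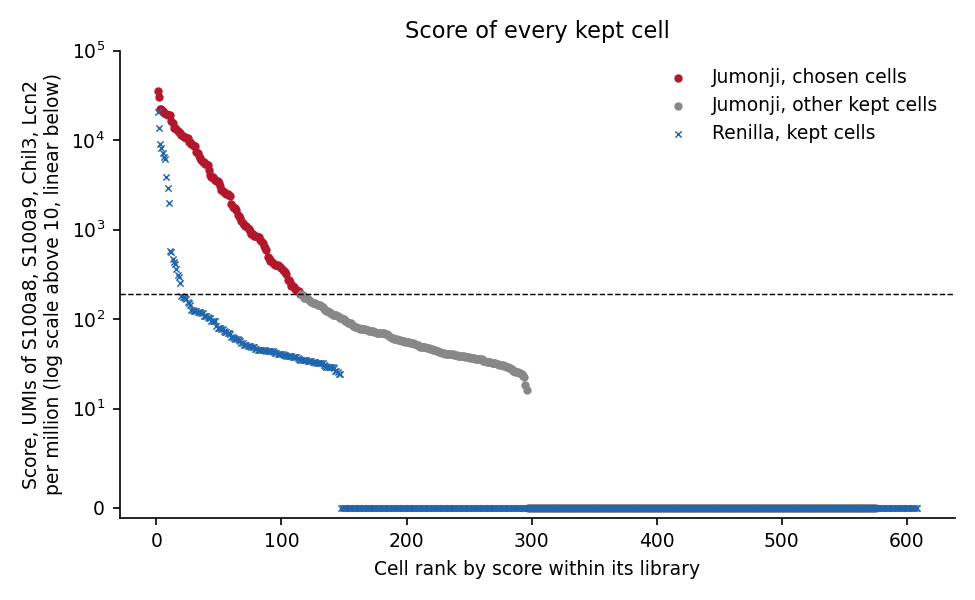
Score of each filtered cell (UMIs of the 4 genes in CPM; log scale above 10, linear below) against its rank within its library; the dashed line is the lowest score of a chosen cell. The chosen Jumonji cells span 189 to 35346 with no gap at the limit, and 19 of 608 Renilla cells lie at or above it.

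S100a8, 1 chain of calprotectin, gave 57.7% of the chosen cells' score-gene UMIs, and S100a9, its partner, gave 39.6%. S100a8 was found in 114 of the 115 cells, with a median of 1355 CPM per cell and quartiles of 406 and 5135. After each cell was thinned to 5000 UMIs it was found in 89.6% of chosen cells and in 9.03% of the other Jumonji cells, 6 of which were too shallow to thin. Unthinned, 120 of the 460 other cells carried an S100a8 UMI, at most 4 in a cell. S100a9 was found in 102 of the chosen cells, and 101 carried both chains.

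Lcn2, the siderophore-binding lipocalin of secondary granules, was found in 63 chosen cells and gave 2.25% of the score. Chil3 added little, with 49 UMIs in 14 cells, 31 of them in a single cell. S100a8 was the leading score gene in 89 chosen cells, S100a9 in 24 and Lcn2 in 2. All 4 genes were seen in 10 cells, 3 of them in 52, 2 in 44 and 1 in 9. No cell type in this library is known to lack S100a8, so the part of free RNA in low scores was not tested. The other Jumonji cells' score-gene UMIs had different proportions, 64.7% S100a8, 24.1% S100a9 and 10.8% Lcn2.

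Neutrophil markers outside the score were checked against the label. Summed over 14 such markers, the chosen cells had 1227 CPM, the other Jumonji cells 512 and the Renilla cells 447. Cebpe alone gave 843, 467 and 394 CPM of these sums, and the other 13 markers summed to 383, 45.4 and 53.3 CPM. Ngp and Camp, both of secondary granules, were higher in the chosen cells than in the other Jumonji cells. They had 455 and 55 UMIs against 42 and 10 in the other Jumonji cells, which hold 4 times as many cells. Camp was at 24.7 CPM in the chosen cells and 17.2 in the Renilla cells. Cd177 and Ly6g, surface proteins of neutrophils, and Csf3r, the receptor of granulocyte colony-stimulating factor, were under the minimum of 100 UMIs used below, and higher in the chosen cells. Cd177 had 38 against 25 UMIs, a log2 ratio of CPM of 2.86 (2.09 to 3.65). Ly6g had 14 against 11 UMIs (2.60, 1.35 to 3.88), and Csf3r 22 against 43 (1.28, 0.47 to 2.06). Other markers of the list were less clear. Padi4 had 27 against 68 UMIs (0.92, 0.22 to 1.58). Mmp8 had 48 against 167 UMIs (0.45, -0.04 to 0.92) and Cxcr2 7 against 16 (1.06, -0.46 to 2.42). The intervals of Mmp8 and Cxcr2 held 0. Ltf, which encodes lactoferrin of secondary granules, and Retnlg and Fpr1, genes of late neutrophils, were at 0 UMIs in every filtered cell of both libraries. With these 3 markers not detected, the cells are called S100a8/S100a9-high or chosen cells here.

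Markers of other cell types moved with the choice as follows, and their part in the values below was not tested. The 5 promyelocyte markers summed to 2939 CPM in the chosen cells, 1571 in the other Jumonji cells and 5221 in the Renilla cells. The 12 monocyte markers summed to 1025, 507 and 543 CPM, with Klf4, Cx3cr1 and Ly86 at 0 in the chosen cells. Most of the monocyte sum came from Ly6c2 (903 CPM in the chosen cells), which young granulocytes share. The 7 macrophage markers summed to 77.4, 116 and 40.6 CPM, with C1qa, C1qb, C1qc, Mrc1 and Mertk at 0 in the chosen cells. Nearly all of the macrophage sum was Adgre1 (170 of 172 UMIs in the chosen cells and 1208 of 1231 in the other Jumonji cells), and the 5 markers at 0 were at 0 in the other Jumonji cells too. The 9 eosinophil markers summed to 134, 71.7 and 35.4 CPM, with Il5ra, Ccr3 and Ear1 at 0 in the chosen cells. Ccr3 and Ear1 were at 0 in the other Jumonji and Renilla cells too, and Il5ra had 2 UMIs in the other Jumonji cells. Ear6, an eosinophil ribonuclease gene, had 36 UMIs in the chosen cells against 24 (2.84, 2.05 to 3.65), and Ear2 had 6 against 1. Ear genes closely resemble each other in sequence, which makes these counts uncertain. The 6 mast cell or basophil markers summed to 18.4 CPM in the chosen cells, 37.2 in the other Jumonji cells and 37.8 in the Renilla cells. For the 4 megakaryocyte markers the sums were 24.3, 19.6 and 6.94 CPM. Markers of dendritic (5 UMIs), erythroid (2 UMIs) and lymphoid cells (0 UMIs) were at or near 0 in the chosen cells.

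Across all genes, UMIs were summed over the chosen cells and over the other Jumonji cells, and the ratio of CPM was taken for the 7419 genes with at least 100 UMIs. This minimum was taken over both groups together, so a gene can pass it mainly through the group where it is high. The score was read from the same cells, so these ratios describe how the chosen cells differ and are no test. The median gene had a log2 ratio of -0.06. At least 2-fold higher were 107 genes (1.44% of those measured), and at least 2-fold lower were 130 (1.75%). At least 1.5-fold higher were 333 genes (4.49%), and at least 1.5-fold lower were 562 (7.58%). These 1.5-fold shares stand beside every list count of chosen against other Jumonji cells below. Small counts in short lists were not tested against them. The largest differences outside the score were in the stefin A cluster on chromosome 16 and in secondary granule genes, all higher. The lower genes were led by Cd74, Ckb, Cd200r4 and Ctss.

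Stefins are inhibitors of cysteine cathepsins, and neutrophils are known to express the mouse stefin A cluster. BC100530 (mm10 chr16:36359382-36367748) was at 2270 CPM in the chosen cells and 26.0 in the other Jumonji cells, a log2 ratio of 6.45 (6.27 to 6.63). It was detected in 99 of the chosen cells and 92 of the others. Gm5483 (chr16:36184212-36188111, listed as Cstdc4 by RefSeq) was at 2186 against 65.6 CPM, and Stfa1 (chr16:36276951-36285373) at 1043 against 93.8, with log2 ratios of 5.06 and 3.47. These are near-identical neighbours, so the split of UMIs among them is uncertain, but all 3 were higher. Single cells overlapped: the highest other Jumonji cell reached 1507 CPM of BC100530, above the chosen cells' median of 540.

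Of the secondary granule genes, 13 of 20 had at least 100 UMIs, and 10 of these were at least 1.5-fold higher and none lower (4.49% and 7.58% of all genes). Some of the 10 passed the minimum mainly through the chosen cells, such as Ngp (455 against 42 UMIs) and Wfdc21 (85 against 34). The count is thus in part set by the filter. Their median log2 ratio was 1.64. Ngp, neutrophilic granule protein (chr9:110419747-110423012), was at 205 against 3.97 CPM, a log2 ratio of 5.69 (5.23 to 6.18), and it was found in 58 chosen cells. Wfdc21 was at 38.2 against 3.21 CPM (3.57). Pglyrp1, a peptidoglycan-binding granule protein, was found in all 115 chosen cells and was at 592 against 244 CPM (1.28). Lyz2, lysozyme, was at 413 against 140 CPM (1.56), with per-cell medians of 256 and 92.2. Slpi, a protease inhibitor, and Hp, haptoglobin, were detected in all 115 chosen cells and had the smallest log2 ratios of the list, 0.31 and 0.32.

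Cybb, the catalytic subunit of the phagocyte NADPH oxidase, had the largest ratio of the oxidase genes. It was at 56.2 against 7.56 CPM, a log2 ratio of 2.90 (2.48 to 3.32). Of the 7 oxidase genes measured, Cybb and Ncf4 (0.63) were at least 1.5-fold higher, all 7 ratios were above 0, and the median was 0.30. Rac1 (0.06) and Ncf1 (0.10), the other ends of the list, had intervals that held 0.

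Late neutrophil genes did not move as a block. Among 16 measured genes of gelatinase granules and late neutrophils, 8 were at least 1.5-fold higher and 2 at least 1.5-fold lower, with a median of 0.38. The 8 include the stefins BC100530, Gm5483 and Stfa1 given above, whose split of UMIs is uncertain. Only these stefins and Mmp9 were at least 2-fold higher. Mmp9, gelatinase B itself, was at 45.4 against 6.14 CPM (2.89). The lectin Clec4d had 28 UMIs against 404 (-1.60).

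Primary granule genes were divided. Of 13 measured, 6 were at least 1.5-fold higher and 3 at least 1.5-fold lower, with a median of 0.25. The list is wider than granule contents: the 6 higher genes include Ms4a3 and Clec12a, which had its 2 largest ratios. Elane, neutrophil elastase (chr10:79886247-79888215), was at 1323 against 606 CPM, a log2 ratio of 1.13 (1.06 to 1.19). Ms4a3, a membrane protein of granulocyte-monocyte progenitors, was at 366 against 97.7 CPM (1.91), and the lectin Clec12a at 71.5 against 24.2 (1.56). Mpo, myeloperoxidase, was at 73.8 against 67.3 CPM, with an interval of -0.12 to 0.38 that held 0. Ctsc, the cathepsin that activates the granule proteases, was lower, at 81.9 against 134 CPM (-0.71).

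Of the chitinase and acute-phase list, 4 of 10 genes were measured, with a median of 1.88, and 3 were at least 1.5-fold higher. With every cell thinned to 5000 UMIs only 1 of the 4 had enough UMIs, and its ratio was 0.13. Lbp, which binds lipopolysaccharide, was at 45.9 against 11.2 CPM (2.04), Il1rn, the interleukin-1 receptor antagonist, at 45.4 against 12.1 (1.91) and Chil1 at 21.6 against 5.95 (1.86). From the 15 higher genes named by size, complement C3 was at 49.0 against 10.0 CPM (2.29), the chemokine Ccl6 at 131 against 30.1 (2.12) and Serpina1b, of the alpha-1-antitrypsin family, at 58.5 against 7.84 (2.90). The Serpina1 genes are near-identical copies, so the assignment to Serpina1b is uncertain. Mogat2, a monoacylglycerol acyltransferase (3.43), Ppp1r42 (3.07) and 4930438A08Rik (2.15) completed the 15 higher genes, with Ifitm6 (2.42) among the secondary granule list.

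Among S100 proteins and annexins outside the score, 4 of 10 were at least 1.5-fold higher and 2 at least 1.5-fold lower. Anxa1, annexin A1 of neutrophil granules and cytosol, was at 108 against 38.6 CPM (1.49) and Anxa3 at 703 against 325 (1.11). S100a10 (-1.65) and S100a4 (-1.72) were lower, so the S100 family did not share 1 direction. Slc40a1, the iron exporter ferroportin, was the only one of 9 measured iron and zinc genes at least 1.5-fold higher, at 33.3 against 8.12 CPM (2.03).

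**Figure D2:**
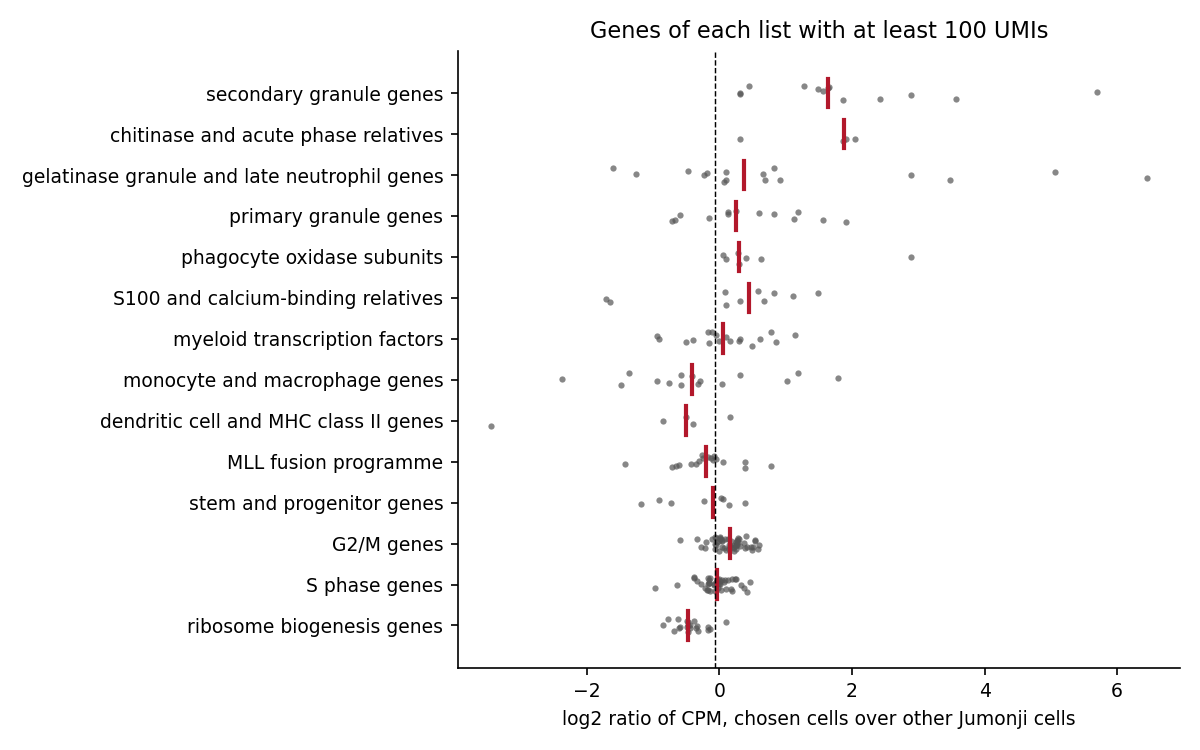
Log2 ratio of CPM, chosen over other Jumonji cells, for each gene with at least 100 UMIs (points) in 14 of the lists, with the list median in red and the median of all genes, -0.06, as a dashed line. Secondary granule genes have a median of 1.64 and lie wholly above 0, while ribosome biogenesis genes have a median of -0.47.

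Of the myeloid transcription factors, Cebpe, Gfi1 and Spi1 were higher in the chosen cells, and Irf8 and Gata2 were lower. Cebpe, which encodes C/EBPε of terminal granulocyte differentiation, was at 843 against 467 CPM (0.85, from 0.78 to 0.93). Gfi1, a repressor needed for neutrophil development, was at 22.5 against 13.1 CPM (0.78, 0.28 to 1.25), and Spi1, which encodes PU.1, at 706 against 502 (0.49). Cebpa (0.61) and Cebpb (0.67) were sparse, with intervals that held 0, and Id2 was at 14.4 against 6.52 CPM (1.14). Irf8, a factor of monocytes and dendritic cells, was at 55.8 against 107 CPM (-0.94), and Gata2, of mast cells and stem cells, at 14.8 against 28.1 (-0.92). Klf4 had 0 UMIs in the chosen cells and 4 in the others. Of 18 measured myeloid factors, 4 were at least 1.5-fold higher and 2 at least 1.5-fold lower, with a median of 0.05.

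The MLL fusion protein is known to keep on a set of genes that includes Hoxa9 and Meis1. Of 18 measured genes of that programme, 1 was at least 1.5-fold higher and 4 lower, with a median of -0.21 against -0.06 for all genes. Hoxa9 (-0.08), Meis1 (0.05) and Myb (-0.13) had intervals that held 0. Bcl2, an inhibitor of apoptosis, was at 11.3 against 30.3 CPM (-1.43), and Myc at 27.9 against 43.7 (-0.65). Of the 8 measured stem and progenitor genes, 3 were at least 1.5-fold lower, with Eng at -1.18 and Cd34, a progenitor surface protein, at -0.74.

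The 15 lower genes included genes of macrophages and antigen presentation and several enzymes. Ctss, the lysosomal protease cathepsin S, had 32 UMIs in the chosen cells and 794 in the others (-2.38), and it was found in 15 chosen cells. Cd74, the invariant chain of MHC class II, had 2 UMIs against 104, and Cd200r4, a receptor of the CD200R family, had 9 against 402. Wfdc17 was at 113 against 316 CPM (-1.49), Ifitm1 at 352 against 1080 (-1.62) and Itgb7, an integrin chain, at 14.4 against 58.9 (-2.03). Hpgd, which inactivates prostaglandins, was at 116 against 371 CPM (-1.68), and Phgdh, the first enzyme of serine synthesis, at 50.8 against 144 (-1.51). Ckb, Lat2, Akr1c12, Crxos, S100a10, Tsc22d1 and Cyp11a1 made up the rest, between -3.28 and -1.55.

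Cells high in Ctss and Wfdc17 were scarce among the chosen cells: 8 of 115 (6.96%, exact Clopper-Pearson interval 3.05 to 13.2%) were also in the highest 20% of the library by those genes. Without all cells in that highest 20%, Ctss stayed lower in the chosen cells (-1.55), Wfdc17 came to -0.39, Ckb to -1.23 and Cd74 to 0.67, and 95 of the 130 lower genes and 100 of the 107 higher genes stayed past 2-fold. Monocyte and macrophage genes as a list had 3 of 15 at least 1.5-fold higher and 5 lower, with a median of -0.41. The higher ones were Ly6c2, a surface antigen shared by monocytes and young granulocytes (903 against 261 CPM), Cd14 and Fcgr1.

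Eosinophil granule genes overlapped with the choice in part. Prg2, Prg3 and Epx, the 3 with at least 100 UMIs, had log2 ratios of 0.88, 0.59 and 1.32. Of the chosen cells, 33 (28.7%) were also in the highest 20% by Prg2 and Prg3, and 46 carried a UMI of either. Prg2 was found in 14 chosen cells. The Prg3 ratio turned to -0.21 when the highest 10% of cells by score were taken.

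Genes outside the score changed step by step along it. The cells were put in 6 bands: score 0 (279 cells), above 0 but not chosen (181), and 4 bins of the chosen cells by rank (28, 29, 29 and 29). BC100530 was at 7.31, 49.3, 194, 293, 2557 and 7293 CPM from the first band to the last, and Ngp at 2.72, 5.53, 10.5, 38.0, 254 and 620. BC100530 was thus already higher in the unchosen cells with 1 to 5 score-gene UMIs than in cells with none, while the Ngp intervals of these 2 bands overlap. Cebpe was graded more gently, at 398, 552, 637, 833, 903 and 1044 CPM, and Ly6c2 at 224, 306, 583, 672, 1115 and 1366. Elane did not follow the score to its end: it was at 479, 765, 1278, 1544, 1294 and 1108 CPM, highest in the second bin of chosen cells. Ms4a3 was not highest in the last bin either, at 55.9, 150, 271, 426, 433 and 320 CPM.

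Genes lower in the chosen cells were graded in the other direction. Ifitm1 was at 1330, 767, 484, 315, 302 and 298 CPM and Ctss at 102, 41.5, 26.2, 14.3, 8.84 and 6.62. Hpgd was at 413 CPM in cells with score 0 and 72.8 in the highest bin. The summed ribosome biogenesis genes stood at 3425 CPM in cells with score 0 and at 1806 in the highest bin. Over all chosen cells 6 of its 21 measured members were lower by 1.5-fold or more and none was higher by that much, with a median of -0.47, and Mybbp1a (-0.86) and Wdr12 (-0.77) were lowest. The highest bin was also the shallowest band, with a median of 14258 UMIs per cell against 20970 at score 0; the part of depth in these values was not tested.

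**Figure D3:**
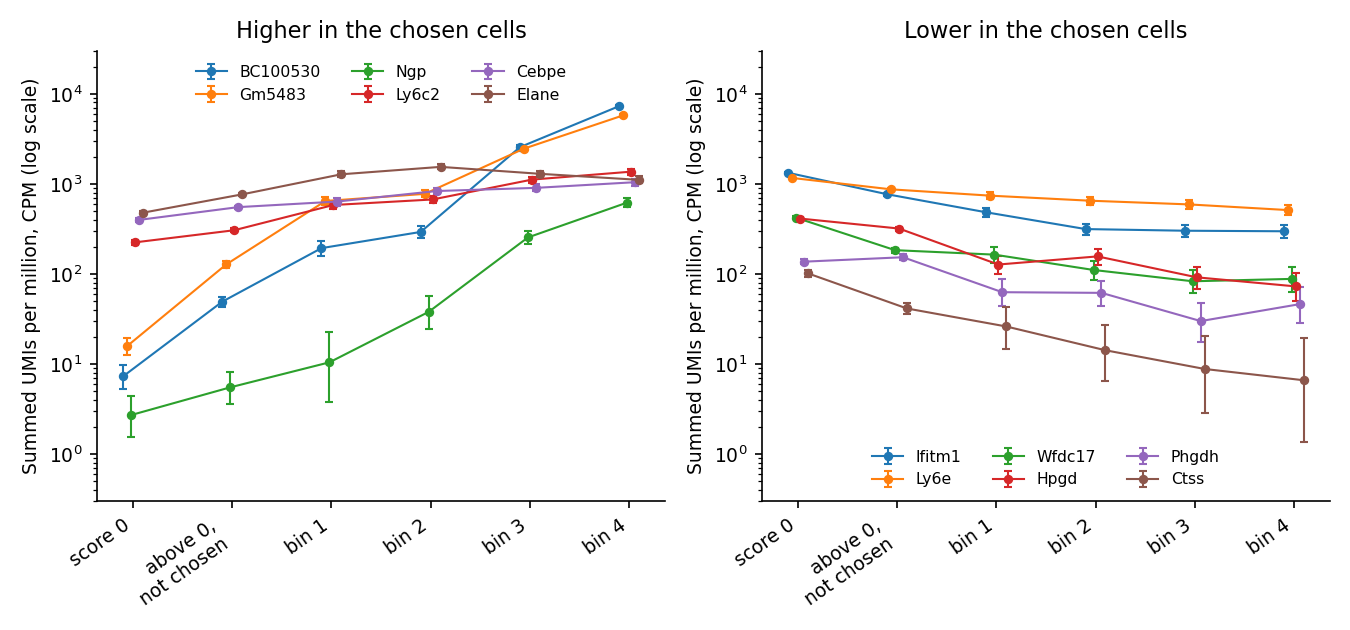
CPM of summed UMIs (log scale, exact Poisson intervals) of 6 higher and 6 lower genes in cells with score 0, in other Jumonji cells above 0, and in the 4 bins of the chosen cells by score. BC100530 and Ngp are highest in bin 4, Elane is highest in bin 2, and Ctss and Ifitm1 are lowest in bin 4.

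The chosen cells also resembled each other outside the score genes. Each cell's 15 nearest neighbours were found without the score genes, the S and G2/M phase lists, mitochondrial genes and ribosomal protein genes. On average 54.9% of a chosen cell's neighbours were chosen cells, against 5.96% for the other Jumonji cells. The chosen cells made up 20% of the filtered library, the share to set beside these values and those of the bins. From the lowest to the highest bin of the chosen cells the averages were 31.2, 41.6, 65.5 and 80.5%. In the lowest bin 3 cells had no chosen neighbour, while each cell of the other bins had at least 1.

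Clustering on the same genes gave 6 clusters, and most chosen cells fell into 2 of them. Cluster 4 held 60 of them among its 93 cells and cluster 6 held 33 among its 62, while cluster 3 held 0 among its 100 (0 to 3.62%). No cluster had 3 neutrophil markers among its 10 leading genes, and the clusters are given by number here. Cluster 1, with 17 chosen cells among its 123, did have 3 promyelocyte markers among its 10 leading genes: Mpo, Ms4a3 and Ctsg. Prg2, an eosinophil granule gene, led cluster 6, and its part in the comparison of the clusters was not tested. Cluster 6 was shallower: its chosen cells had a median of 12653 UMIs against 22057.5 for those in cluster 4.

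The 2 sets of chosen cells differed in cell cycle genes, which were kept out of the clustering as lists. Summed over 54 G2/M genes, the chosen cells of cluster 4 were at 10297 CPM and those of cluster 6 at 3818, and over 42 S phase genes at 3661 and 1848. At 5000 UMIs per cell, 45 of 60 chosen cells in cluster 4 were called G2/M, 15 S and 0 G1 (0%, 0 to 5.96%). In cluster 6, 22 of 33 were called G1 (66.7%, 48.2 to 82.0%), 7 S and 4 G2/M. Other genes of the cycle stayed in the clustering, and their part in it was not tested. The score was present in both, with medians of 2580 CPM in cluster 4 and 7183 in cluster 6. S100a8 was at 2916 CPM in the chosen cells of cluster 4 and 4567 in those of cluster 6, and Lcn2 at 93.7 and 227. Among the other cells of these clusters, 0 of 33 in cluster 4 and 19 of 29 in cluster 6 were called G1. G1 calls were thus missing from cluster 4 in chosen and other cells alike.

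Over all chosen cells, 27.0% were called G1 (19.1 to 36.0%), against 31.7% of the other Jumonji cells (27.5 to 36.2%) and 9.92% of the Renilla cells (7.65 to 12.6%). G2/M calls were 48.7, 37.7 and 49.6%. The G1 shares of chosen and other Jumonji cells overlap within counting error. At 10000 UMIs per cell, which left out 17 chosen and 38 other Jumonji cells, they were 17.3% (10.4 to 26.3%) and 27.0% (22.8 to 31.5%). Unthinned, 24.3% of chosen and 28.0% of other Jumonji cells were called G1. Without the cells highest in Ctss and Wfdc17 the order of the 5000-UMI shares turned, to 23.4 and 19.6%. Of the G2/M genes, 1 of 54 was at least 1.5-fold higher and 1 lower, with 41 ratios above 0 and a median of 0.17, and Gtse1 (0.59) was highest. Of the 42 S phase genes, Ung, a DNA repair glycosylase, was lowest (-0.97), and the median was -0.03.

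**Figure D4:**
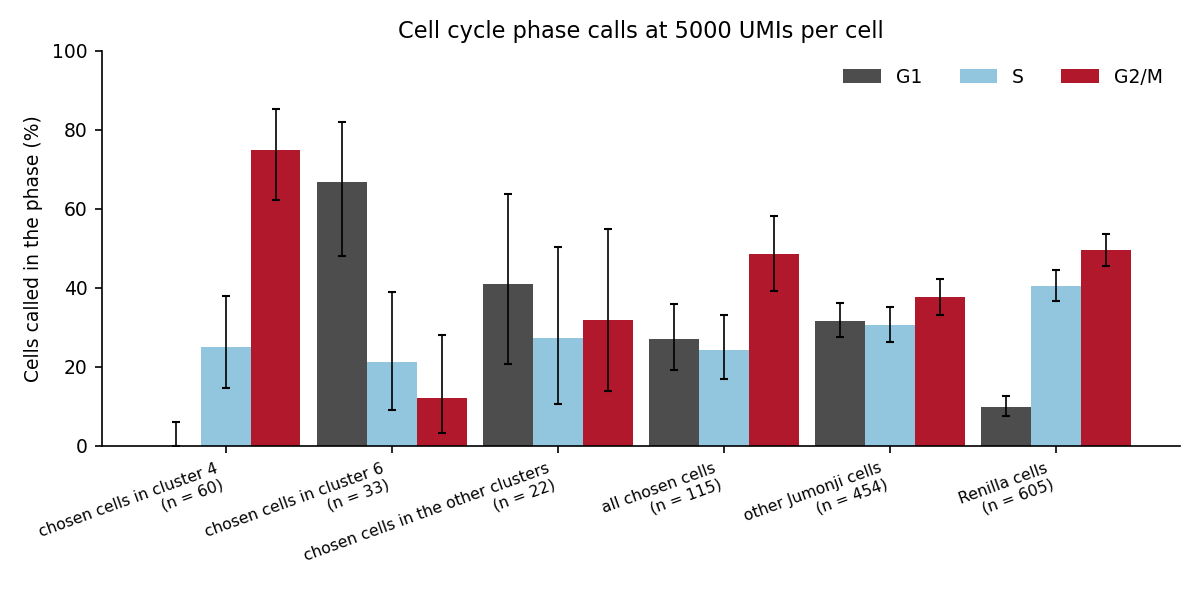
Share of cells called in G1, S and G2/M at 5000 UMIs per cell, with exact Clopper-Pearson intervals that cover counting error only. None of the 60 chosen cells in cluster 4 was called G1, against 22 of 33 in cluster 6.

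The Renilla library, which the choice of cells did not use, held 19 of 608 cells (3.13%, 1.89 to 4.84%) at or above the lowest score of a chosen cell. With 1 library of each kind, the sgRNA, the culture and the library preparation cannot be told apart. In those 19 cells S100a8 was at 2058 CPM, S100a9 at 1448 and Lcn2 at 40.7, against 2786, 1912 and 108 in the chosen Jumonji cells. Chil3 went the other way, at 114 CPM and in 9 of the 19 cells, against 22.0 CPM and 14 of the 115. All 15 of the higher genes were at least 1.5-fold higher in these Renilla cells than in the other 589. Some of these ratios rest on few UMIs in the 19 cells: 2 of Serpina1b, 3 of Mmp9, 4 of Ccl6 and 5 of Ifitm6. The Mmp9 interval, -1.08 to 2.89, held 0. Of the 15, 7 had at least 100 Renilla UMIs, and all 7 passed, against 10.3% of the 7683 Renilla genes with that minimum. The minimum counted the 19 cells too. Without them, Ngp (285 of 303 UMIs in the 19) and 4930438A08Rik (19 of 112) would not have reached it. The count of 7 is thus in part set by the filter. Of the lower genes, 9 had that minimum and 7 were at least 1.5-fold lower (a 0 entered as 3 UMIs), against 23% of genes. Wfdc17 and Akr1c12 were not.

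The 2 sets of high cells differed in several granule genes. Elane was at 3283 CPM in the 19 Renilla cells and 1323 in the chosen Jumonji cells, and Mpo at 277 and 73.8. Ngp was at 724 and 205 CPM, but 160 of the 285 Ngp UMIs in the Renilla cells came from 1 cell. Ms4a3 was at 960 and 366 CPM, and Camp at 516 (203 UMIs) and 24.7 (55 UMIs). Lyz2 went the other way, at 81.3 CPM in the Renilla cells and 413 in the chosen Jumonji cells, and so did Ccl6, at 10.2 and 131. Of receptor genes, Lilrb4a was at 2.54 CPM in the 19 Renilla cells, 82.3 in the chosen Jumonji cells and 73.2 in the other Jumonji cells, and Csf2rb, the shared beta chain of the interleukin-3 receptor, at 45.7, 134 and 113. For these receptors the chosen cells lay with their own library. Lilrb4a has near-identical relatives, so its counts are uncertain. Mpo, Camp, Cd34, Lilrb4a and Csf2rb were picked for the text after their values were seen.

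**Figure D5:**
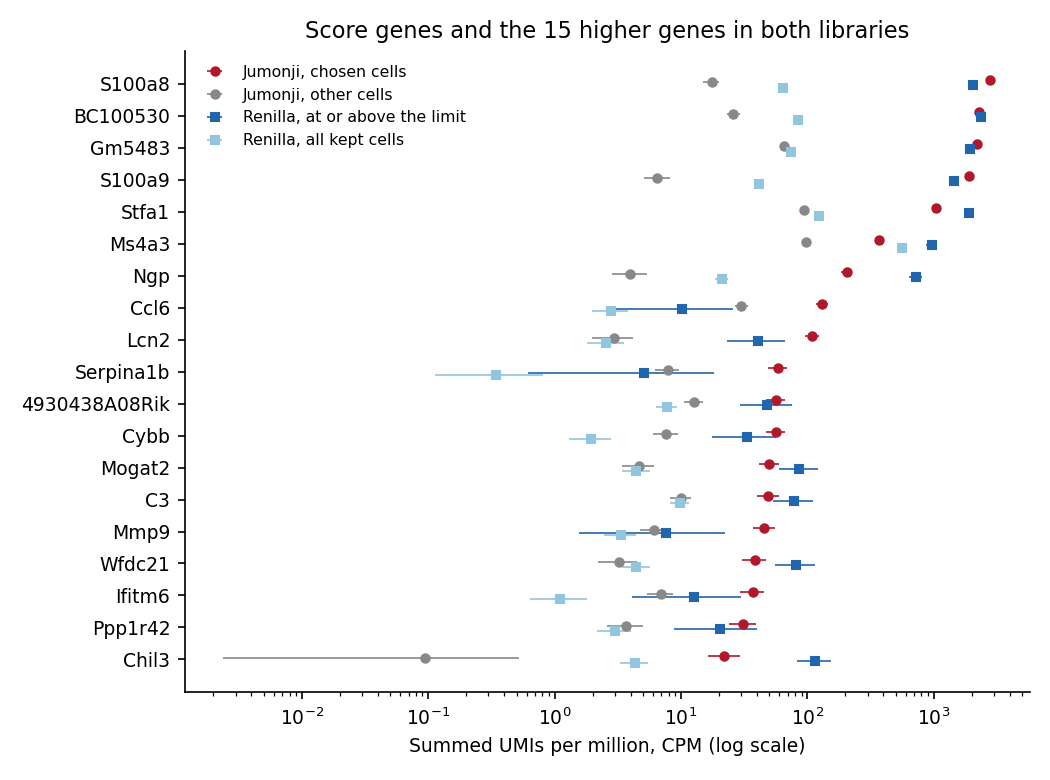
CPM of summed UMIs (log scale, exact Poisson intervals) of the 4 score genes and the 15 higher genes in chosen and other Jumonji cells, and in Renilla cells at or above the limit and all Renilla cells. For each of the 15 genes the 19 high Renilla cells lie above all Renilla cells, with overlapping intervals for Mmp9, Ccl6 and Serpina1b. Ngp and Ms4a3 are higher in the 19 high Renilla cells than in the chosen Jumonji cells.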

How the data were processed

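The values deposited by the authors are raw UMI counts for each gene in each barcode. The labels' protocols name the version 2 Chromium kit of 10x Genomics, which reads the 3′ end of transcripts. Cell Ranger 1.3.1 and the build mm10 are listed in the submitters' processing notes. How barcodes were called as cells is not given in the sources used here. GENCODE M21 held 27645 of the 27998 gene identifiers and gave the 1-based coordinates.

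Barcodes with 500 or more genes and no more than 10% mitochondrial UMIs were retained: 575 of 652 Jumonji (12809661 UMIs) and 608 of 651 Renilla (14418743 UMIs). All excluded barcodes failed on mitochondrial share. UMIs were summed over cells and divided by the group's total (CPM). Ratios have exact conditional binomial intervals, sums exact Poisson intervals and shares exact Clopper-Pearson intervals. A count of 0 entered a ratio as 3. Clusters and phases were made with scanpy 1.11.5 and leidenalg 0.10.2 (2000 variable genes, 30 components, 15 neighbours, resolution 0.6). Scrublet marked doublets, which were retained. The ratio code was tested on simulated data.

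The cells and the 28 gene lists were chosen with earlier results of these data known. Genes were named by rule. The rule took the score genes and Jmjd1c, and then 15 genes in each direction, ranked by the interval bound closest to 0. It added the ends of each list and list members at least 2-fold apart, 11 transcription factors, and genes that define other cell types. Alternatives changed the score genes, the share of cells taken, the cell filter, depth, weighting, centring, the count minimum, doublets, barcodes shared by the libraries and the cells high in Ctss and Wfdc17.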

Additional observations from a re-analysis of the deposited data

How the results depend on the processing

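The count of genes at least 2-fold higher was 41 with every cell thinned to 5000 UMIs, 168 with a minimum of 50 UMIs per gene and 59 with a minimum of 200. The count at least 2-fold lower was 363 with the highest 10% of cells, 61 with the highest 30%, 266 with a minimum of 50 UMIs and 65 with a minimum of 200. The minimum changes how many genes are measured: 8856 at 50 UMIs, 5565 at 200 and 3403 after thinning. The share of Renilla cells at or above the limit was 1.48% with the highest 10%, 8.88% with the highest 30% and 8.76% after thinning. G1 calls among the chosen cells were 17.3% at 10000 UMIs, against 27.0% of the other Jumonji cells. The log2 ratio of Prg3 was -0.0033 with a score without S100a9, -0.21 with the highest 10% of cells and -0.00011 after thinning. That of Cd74 was 0.67 without the cells highest in Ctss and Wfdc17, from counts near 0. The causes of these and the following changes were not tested, beyond the number of genes measured. Counting each result once per setting, those above included, 45 of 56 counts and shares, 377 of 384 list medians and 1534 of 1708 gene ratios stayed close to the values given. The tallies include a setting without barcodes shared by the libraries. As the libraries shared no barcode, that setting removed no cell, and its results stayed the same by construction. The 7 list medians that moved were those of the score genes (6.47 without S100a8, 6.25 with the highest 10%, 8.31 after thinning), eosinophil genes (0.21 with the highest 10%, 0.17 after thinning), chitinase and acute-phase genes (0.13 after thinning) and interferon response genes (-0.96 after thinning). A score without S100a8 kept 89 of 107 genes 2-fold higher and 73 of 130 genes 2-fold lower. Genes with few UMIs, such as Cd74, Ckb and Chil3, have wide intervals at this depth. No paired analysis was possible because each condition had 1 library.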

Other observations

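Further gene groups were measured in the chosen cells against the other Jumonji cells. Over all genes, 4.49% were at least 1.5-fold higher and 7.58% at least 1.5-fold lower. Of 18 receptors for chemokines, cytokines and microbial products, 2 were at least 1.5-fold higher and 2 lower, with a median of 0.12. Ltb4r1, the leukotriene B4 receptor that guides neutrophils, was at 156 against 76.4 CPM (1.03), and Ccr2, the chemokine receptor of monocytes, had 11 UMIs against 135 (-1.37). Among 19 integrin and Fc receptor genes, 3 were at least 1.5-fold higher and 1 lower, with a median of 0.14, and Itgal, the alpha chain of LFA-1, was highest (1.52). Of 20 lysosome genes, Ctsh (1.10) and Ctse (0.86) were at least 1.5-fold higher, while Ctss (-2.38), Cd68 (-0.76) and Ctsc (-0.71) were at least 1.5-fold lower.

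Interferon-response genes were split within a single family. Ifitm6 had a log2 ratio of 2.42 and Ifitm1 of -1.62, and of the 7 measured genes of the list 1 was at least 1.5-fold higher and 2 lower. Of 14 stress and apoptosis genes, 1 was higher and 2 were lower by 1.5-fold. Bcl2a1b, of the Bcl2 family, was at 170 against 77.7 CPM (1.13), whereas Bcl2 stood at -1.43. The Bcl2a1 genes are near-identical copies, so the assignment to Bcl2a1b is uncertain. Of 18 genes that restrain or drive G1, Btg2, an antiproliferative gene, was at least 1.5-fold higher (1.04), and Cdkn2a (-0.66) and Ccnd2 (-0.65) were at least 1.5-fold lower. None of 16 glycolysis genes was 1.5-fold apart.

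Few genes of other lineages had 100 UMIs. The 5 measured genes of dendritic cells and MHC class II had a median of -0.50, with 2 lower by 1.5-fold (Cd74 and H2-DMa) and none higher. Gata2 was the only measured mast cell and basophil gene, Tfrc (-0.05) the only erythroid one and Nkg7 (0.83), also a granule gene, the only lymphoid one. The 2 megakaryocyte genes were Pf4 (0.58) and Plek (-0.41).

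Barcodes left out for their mitochondrial share also held cells at or above the limit, 4 of 77 in the Jumonji library (5.19%, 1.43 to 12.8%) and 4 of 43 in the Renilla library (9.30%, 2.59 to 22.1%).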
